A study of Mus musculus with 18 samples.

Results

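Oxidative phosphorylation is carried out by 5 protein complexes of the inner mitochondrial membrane, and the nascent transcription of the nuclear genes that encode their subunits was examined in murine embryonic stem (ES) cells. The genes were chosen by name from the deposited gene table (names beginning Ndufa, Ndufab, Ndufb, Ndufc, Ndufs or Ndufv with a number, Sdha to Sdhd, Uqcr, Cox4 to Cox8, and Atp5), with the Ndufaf assembly factors left out. This gave 89 of the 21859 rows, which hold 88 names because Atp5o is listed under 2 identifiers. By name, 40 rows belonged to complex I, 4 to complex II, 8 to complex III, 19 to complex IV and 18 to complex V.

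The cells were E14 ES cells, an established line, grown without feeders in serum with LIF and inhibitors of GSK and MEK. All of them carried osTIR1, the plant F-box protein that recruits AID-tagged proteins for degradation when auxin is present. In 2 clones, SPT16-AID-V5 clone 1 and clone 2, the FACT subunit SPT16 also carried a mini-AID and V5 tag on both alleles, while untagged cells lacked it. Each of the 3 lines was given 0.1% ethanol (EtOH) or the auxin 3-indole acetic acid (IAA) for 24 h after 48 h of undisturbed growth, and 3 TT-seq libraries were made for each of the 6 conditions, 18 in all. In TT-seq, RNA made during a pulse of 4-thiouridine, here 5 min, is purified and sequenced, so that introns as well as exons are read. The labels give the dose as 500 nM for IAA and 500 mM for 4-thiouridine, while the study's methods give 500 µM for both. Each tagged line is a single clone, and the study treats the clones as biological and the repeats of one sample as technical replicates.

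One value per gene was used, the authors' mean normalized count. It joins control and SPT16-depleted libraries, has no error, and cannot show an effect of SPT16 depletion. The values therefore describe how strongly each gene was transcribed over the whole experiment, and no test between conditions was made. Levels of different genes are compared per kb of the gene span that no other gene of the table shares on the same strand, since genes inside another gene were listed at 0 whether or not their exons overlapped, and reads thus appear to have been counted over whole spans.

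Complex I (NADH dehydrogenase) and complex II (succinate dehydrogenase, also an enzyme of the citric acid cycle) pass electrons to ubiquinone. Complex III (the cytochrome bc1 complex) passes them on to cytochrome c, and complex IV (cytochrome c oxidase) to oxygen. Complexes I, III and IV pump protons, and complex V (ATP synthase) uses the gradient to make ATP. All complexes but complex II also hold subunits encoded by mitochondrial DNA, which the name rule leaves out. Several subunits of complexes IV and V come in isoforms encoded by separate genes, some of them known for muscle, lung or testis.

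The labelled cell type was checked against marker genes. All 12 ES cell markers had a mean normalized count of at least 10, with a median level of 1267 per kb, and Pou5f1 was at 1595 and Nanog at 2070 per kb. Markers of striated muscle and heart had a median of 0.959 per kb over 9 genes, those of testis and germ cells 3.73 per kb over 8, and those of fibroblasts 0.811 per kb over 7. On this scale none of the genes in these last lists lay above the median gene of the table. Per kb of exon the germ cell marker Sycp3 did, with 312 against 299 for the median gene. The depth of the libraries shows only in genes that drew a single read from 1 library. The search kept at most 18 such values, the number of libraries, and returned 18, with none assigned to a library. They ran from 0.0216 to 0.115 and differed by 5.34 times.

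Most subunit genes were transcribed well above the typical gene. Of 89 rows, 83 had a mean normalized count of at least 10 (93.3%, against 70.6% of all rows of the table), 57 had at least 1000, 4 were above 0 but under 10, and Cox4i1 and Ndufa13 were listed at 0. On the scale per kb of unshared span, 79 of the 87 rows with a level lay above the median of the 15428 genes with a count of at least 10, which was 60.6 per kb. The median row of the set lay at the 84.8th percentile of those genes. Without length correction 54 rows lay above the median gene and the median row at the 53.5th percentile, so the high place of the set depends on its short genes being set against their length. For comparison, the median was 170 per kb over 78 genes of mitochondrial ribosomal proteins and 1825 per kb over 83 genes of cytoplasmic ribosomal proteins. All 89 rows together held 0.362% of the summed mean normalized counts of the table.

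The complexes overlapped widely in level. The median was 181 per kb for complex I, 178 for complex II, 295 for complex III, 290 for complex IV and 339 for complex V. Complexes II and III spanned 2.35-fold and 2.86-fold from the lowest to the highest gene. Complex I spanned 10.9-fold, with the paralogs Ndufa4l2 and Ndufa4 at its ends. Complex IV spanned 914-fold and complex V 669-fold, the latter through 1 of the rows of Atp5o. Of the 8 rows below the median gene, 6 belonged to complex IV. Scaled per kb of exon, the medians stood in another order, with 1446 for complex III, 1279 for complex II, 986 for complex V, 831 for complex IV and 783 for complex I, so that no order of the complexes is given.

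**Figure D1:**
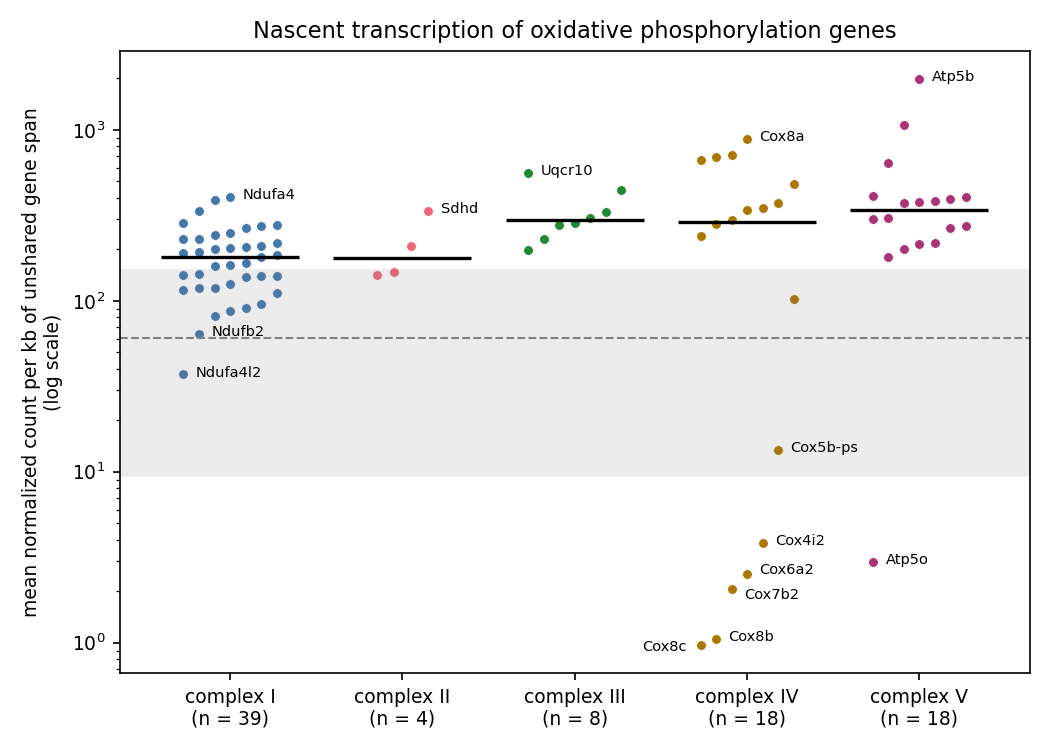
Mean normalized count per kb of unshared gene span (log axis) for each gene with a level, by complex; black bars are the median of each complex, the dashed line is the median of all genes with a count of at least 10 (60.6 per kb) and the grey band their middle 50%. Most points lie above the dashed line, and the low points are isoforms and a pseudogene of complex IV, 1 row of Atp5o and Ndufa4l2.

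Complex I is built around a catalytic core that holds the flavin and the iron-sulfur clusters. The core genes given here ran from 144 per kb for Ndufs8 to 275 per kb for Ndufv1. Per kb of exon they spread more widely, from 436 for Ndufs8 to 2234 for Ndufv2, with 567 for Ndufv1. Ndufv1, which carries the flavin and accepts electrons from NADH, had a mean normalized count of 1493. Its partner in the NADH-oxidizing module, Ndufv2, was at 209 per kb, and Ndufs1, the largest iron-sulfur subunit, at 229 per kb. Ndufs3 was at 191 and Ndufs7 at 160 per kb. The 32 accessory genes with a level had a median of 174 per kb, next to 191 for the core, with their middle 50% between 118 and 232 per kb and a wider range from 37.1 to 404 per kb.

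The highest accessory gene was Ndufa4 with 404 per kb, and the lowest its paralog Ndufa4l2 with 37.1 per kb. Ndufa4 carries a complex I name here, although its protein is now counted as a subunit of cytochrome c oxidase. Without this pair, the rows of complex I with a level ran from 64.0 to 388 per kb. Ndufa7 followed with 388 per kb. Ndufb2 was the second lowest at 64.0 per kb, and 37.2% of its span is shared with another gene. Ndufs4, a small subunit whose loss causes Leigh syndrome, had the second largest count of all rows, 11589.7, but spread over a span of 100 kb, which left it at 115 per kb. Per kb of exon the same gene ranked first in complex I with 4280. Ndufab1, also the acyl carrier protein of mitochondrial fatty acid synthesis, was at 181 per kb. Ndufb11b, a gene with a span of 1.02 kb, was at 139 per kb, against 242 per kb for Ndufb11.

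In complex II all 4 genes lay above the median gene of the table, the lowest at the 72.4th percentile. Sdha, the flavoprotein that oxidizes succinate, had a count of 5859 and a level of 209 per kb. Sdhb, the iron-sulfur subunit, was at 142 per kb. Of the membrane anchors, Sdhc was at 147 and Sdhd at 333 per kb. Catalytic and anchor genes thus overlapped in level, with the highest value among the anchors.

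The genes of complex III lay close together. Uqcrc1 and Uqcrc2, the core proteins that face the matrix, were at 332 and 197 per kb, and Uqcrfs1, the Rieske iron-sulfur protein, at 284 per kb. The small subunits Uqcr10 and Uqcrq had the highest levels, 562 and 443 per kb, and Uqcr11 was at 230 per kb. Uqcrh, the acidic hinge protein at the cytochrome c binding site, had 306 per kb. The lowest of the 8, Uqcrc2, lay at the 82.0th percentile of the table. Per kb of exon Uqcr10 again ranked first with 2282, but Uqcrq was last with 704.

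Complex IV held both highly transcribed genes and the lowest ones of the set. Cox5a and Cox5b, nuclear subunits present in every form of the enzyme, were at 483 and 371 per kb. Cox8a had the highest level, 888 per kb, followed by Cox6b2 with 709, Cox7c with 695 and Cox6a1 with 670 per kb. Per kb of exon Cox6b1 came first with 4455 against 3535 for Cox8a, and Cox7c and Cox6b2 were at 1283 and 834. At the other end, 4 rows had a mean normalized count under 10. The pseudogene Cox5b-ps had 5.23, Cox6a2 had 2.40, Cox8b had 1.57 and Cox8c had 1.18. From the values of 1 read, Cox8c rests on 10 to 55 reads and Cox8b on 13 to 73 reads over all 18 libraries. The authors kept unique alignments only, so the values of Cox5b-ps and of its parent gene Cox5b are uncertain where their sequences are alike.

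In complex V, Atp5b and Atp5a1 of the catalytic head stood highest, while the median of the head, 304 per kb, lay below those of the c ring, 411, and the peripheral stalk, 373. Per kb of exon this order turned, with 3123 for the head, 841 for the c ring and 1100 for the stalk. The stalk value is that of the long row of Atp5o, whose exon bases are all shared with other genes. Atp5b, the catalytic beta subunit, had the largest mean normalized count of all rows, 14099, and the highest level, 1980 per kb. Atp5a1, the alpha subunit that alternates with it in the hexamer, followed with 1071 per kb. The single-copy subunits of the head were lower, with 304 per kb for Atp5c1 (gamma), 266 for Atp5e (epsilon) and 180 for Atp5d (delta). Outside the row of Atp5o that spans 243 kb, the peripheral stalk genes Atp5pb, Atp5h, Atp5j and Atp5o ran from 200 to 404 per kb. The supernumerary membrane subunits, Atp5j2, Atp5k, Atp5l, Atp5md and Atp5mpl, ran from 217 to 395 per kb. Per kb of exon, Atp5c1 came first with 3908 and Atp5b second with 3328, so the lead of Atp5b depends on the length used.

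Isoform families were compared gene by gene. In 4 of the 7 families with a level for each gene, 1 isoform held over 90% of the summed level per kb. Cox8a, the ubiquitous liver-type isoform, held 99.8% of its family and was 848-fold above Cox8b, the heart and muscle isoform, and 914-fold above Cox8c, known from testis. Cox6a1 held 99.6% and was 266-fold above the heart and muscle isoform Cox6a2. Cox7b held 99.4%, against 0.588% for Cox7b2, a gene known from testis with a span of 105 kb. Per kb of exon the share of Cox7b was 82.9%. Ndufa4 held 91.6%, with Ndufa4l2, known as a hypoxia-induced gene, at 8.41%. Counting error is small against these folds, since even Cox8c rests on at least 10 reads.

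The other families were mixed. Cox7a2, the liver-type isoform, was at 298 per kb and Cox7a2l, a factor of respiratory supercomplexes, at 282 per kb. Cox7a2l was ahead by count, 4343 against 1347, and per kb of exon, 2939 against 1427. Cox7a1, the heart and muscle isoform, reached 103 per kb, above the median gene and far above the muscle markers, whose highest value was 7.67 per kb for Des. In such bulk libraries a gene transcribed in few cells and one transcribed weakly in every cell cannot be told apart. Cox6b2, known for its expression in testis, was at 709 per kb, against 339 per kb for Cox6b1, the ubiquitous isoform. Counts without length correction put Cox6b1 ahead with 3154 against 924, and levels per kb of exon with 4455 against 834, so the order of this pair turns with the length used. The testis and germ cell markers were low beside Cox6b2 on this scale, with 28.9 per kb for the highest, Sycp3. The distance was smaller per kb of exon, with 312 for Sycp3 against 834. By count the largest marker value was 585, for Ddx4, against 924. The genes Atp5g1, Atp5g2 and Atp5g3 encode the same mature c subunit of the rotor. They were at 216, 411 and 637 per kb, and per kb of exon Atp5g2 came first with 2326. Cox4i2, the lung isoform of COX4, had a count of 41.5 and a level of 3.82 per kb, while its partner Cox4i1 has no level and no share of this family was computed.

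**Figure D2:**
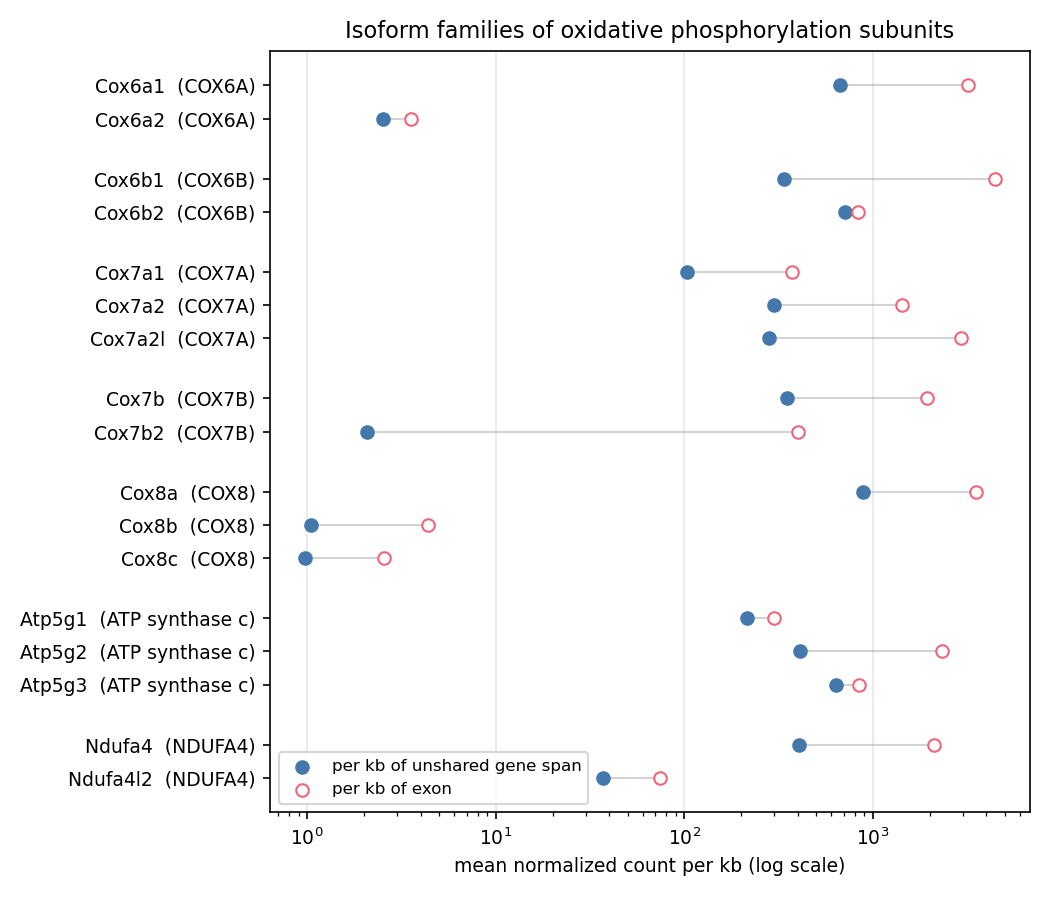
Level of each isoform (log axis), as mean normalized count per kb of unshared gene span (filled) and per kb of exon (open), grouped by family; the COX4 family is left out because Cox4i1 is listed at 0. Cox6a1, Cox7b, Cox8a and Ndufa4 lie to the right of their paralogs on both scales, while Cox6b2 and Cox6b1 change order between them.

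Promoter sequences of 2 such pairs are shown because their CpG content differs between the isoforms, and the pairs were chosen after this was seen. They come from RefSeq on GRCm38.p6, cover the 100 bases before the start site 5′ to 3′ on the strand of the gene, and carry each CG in capitals. Cox8a (chr19:7217617-7217716, minus strand) and Cox7a2 (chr9:79759854-79759953, minus strand) are the liver-type isoforms, and Cox8b (chr7:140900447-140900546, minus strand) and Cox7a1 (chr7:30184071-30184170, plus strand) those of heart and muscle.
Cox8a: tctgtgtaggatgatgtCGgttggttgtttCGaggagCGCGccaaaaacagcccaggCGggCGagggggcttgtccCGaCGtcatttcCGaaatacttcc
Cox8b: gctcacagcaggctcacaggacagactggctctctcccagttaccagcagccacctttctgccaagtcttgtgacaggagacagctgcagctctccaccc
Cox7a2: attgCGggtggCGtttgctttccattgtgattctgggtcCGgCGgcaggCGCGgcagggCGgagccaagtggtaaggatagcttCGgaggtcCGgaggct
Cox7a1: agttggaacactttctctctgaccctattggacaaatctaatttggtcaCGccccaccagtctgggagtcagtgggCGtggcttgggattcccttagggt
The stretches of Cox8a and Cox7a2 each hold 9 CG, that of Cox7a1 holds 2 and that of Cox8b none. Over the whole 300 base window, from 250 bases before to 50 after the start, Cox8b had 2 CG and Cox7a1 had 7. The 70 members with a promoter in the reference had a median of 19 CG, as had all genes with a count of at least 10, against 14 over all 16810 promoters matched to the table. Of the 70, Cox8b and Cox7b (5 CG) were the only ones with 5 or fewer, as did 31.3% of all promoters. Cox7b was nevertheless at 350 per kb, so a promoter with few CG was not always that of a low gene. Its low isoform Cox7b2, at 2.07 per kb, had 10 CG, so this pair went the other way. No promoter was matched for Cox6a2, Cox8c, Cox4i2 and Ndufa4l2, and these isoforms could not be compared.

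Cox4i1 and Ndufa13 were both listed at 0, and both lie wholly inside another gene of the table on the same strand. Cox4i1, the ubiquitous isoform of COX4, lies on chromosome 8 of GRCm38 from 120668222 to 120674207, inside Galnt2l, whose annotated span covers 4435 kb and whose mean normalized count was 14669. Ndufa13, a complex I subunit also known as GRIM-19, lies on the same chromosome from 69894180 to 69902558, inside Yjefn3, which had a count of 626. No exon base of either gene is shared with an exon of the gene around it. Across the table the pattern was general. Of 400 genes whose whole span is shared on the same strand, 398 were listed at 0, and of the 182 of these that share no exon base, 180 were. Among the 20447 genes with no such overlap, 1178 (5.76%) were listed at 0. The values of Cox4i1 and Ndufa13 thus give no measure of their transcription.

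**Figure D3:**
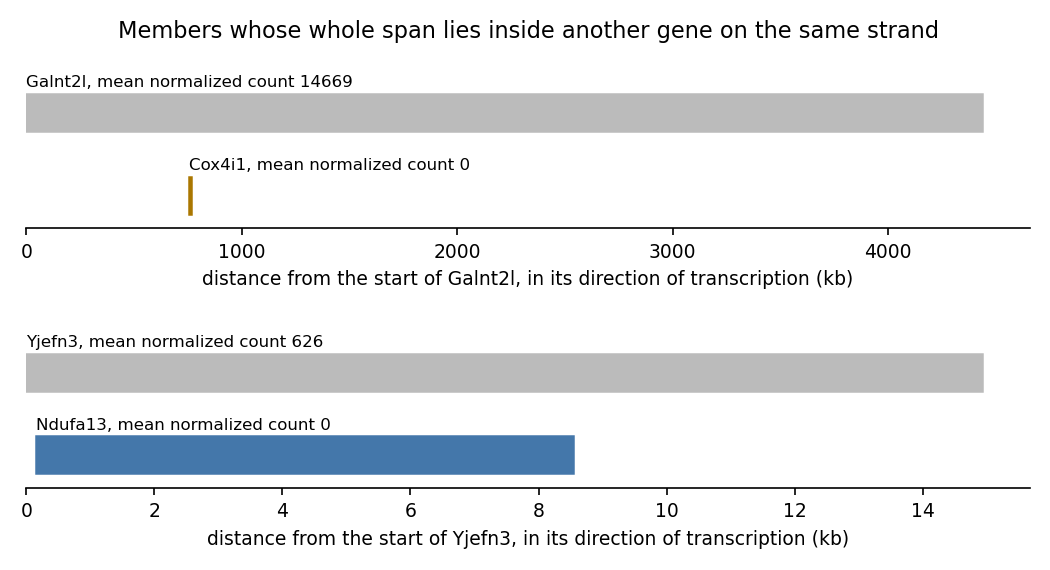
Spans of Cox4i1 and Ndufa13 (coloured) and of the genes that enclose them (grey), drawn to scale from the start of the enclosing gene, in kb. Cox4i1 and Ndufa13 are listed at 0, with 14669 for Galnt2l and 626 for Yjefn3.

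A further 5 rows share part of their span. Shared stretches made up 37.2% of Ndufb2, 62.0% of Ndufb8 and 62.9% of Ndufb9, and dividing by the remaining length gave 64.0, 184 and 266 per kb. Atp5o, the stalk subunit that confers oligomycin sensitivity, has a compact row (ENSMUSG00000022956) of 6.47 kb with a count of 940 and a long row (ENSMUSG00000116933) of 243 kb with a count of 583. All exon bases of the long row are shared with other genes of the table. The compact row was at 200 per kb and the long one at 2.96 per kb.

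Promoter upstream transcripts (PROMPTs) are made from the same promoter as a gene but in the opposite direction, and the study counted them in a window of 1 kb. A PROMPT row was found by name for 57 of the 89 rows. Of these, 51 (89.5%) had a mean normalized count of at least 1 and 24 (42.1%) of at least 10. Of all 18129 genes with a PROMPT row the shares were 42.7% and 15.7%, and of those whose gene had a count of at least 10 they were 56.5% and 21.4%. The median PROMPT was at 7.54 for the set and at 1.54 for the latter genes. Those genes were not matched to the set in level, and the median row of the set lay at the 84.8th percentile. The higher PROMPT values are therefore not read as a trait of the set. Gene and PROMPT tables were normalized separately, so ratios across them are approximate. The PROMPT stood at a median of 3.11% of the level per kb of its gene over 54 members, and at 4.14% over 12540 genes of the table. Both medians cover only genes with a count of at least 10, which leaves out Cox8b, Cox8c and Cox5b-ps.

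The highest PROMPT values were 167 for Cox7a1, 106 for Cox8b, 92.6 for Atp5j2, 83.8 for Ndufa6 and 83.5 for Cox5a. The PROMPT exceeded the level per kb of its gene in 3 members, all of them isoforms of complex IV. It was 101-fold higher at Cox8b, 4.49-fold at Cox4i2 and 1.62-fold at Cox7a1. At Ndufa4l2 the ratio was 0.972. The next ratio was 0.267, at Ndufa12. The ubiquitous counterparts had low ratios, 0.0697 at Cox8a and 0.0314 at Cox7a2. PROMPTs under 1 were found at Ndufa9, Ndufb3, Cox5b-ps, Cox8c and Atp5c1, and that of Cox7b2 was listed at 0.

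Other genes lay close to several of these windows. Psmd13, with a count of 3665, runs toward Cox8b on the opposite strand and ends 1.80 kb downstream of its start. In the same way Capns1 (4492) ends 2.79 kb downstream of the start of Cox7a1 and Shmt2 (2482) 2.16 kb downstream of that of Ndufa4l2. Transcripts of these genes that run past the annotated end would be read on the strand of the PROMPT. Of the 57 members, 6 had an opposite-strand gene ending within 5 kb downstream of the start, and their median PROMPT was 27.6, against 6.57 for the other 51. In the whole table the medians were 11.8 over 500 genes and 0.533 over 17608. No such gene ended within 5 kb at Cox4i2, where the nearest, Bcl2l1, ended 26.5 kb downstream. The part of these neighbours in the PROMPT values was not tested.

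**Figure D4:**
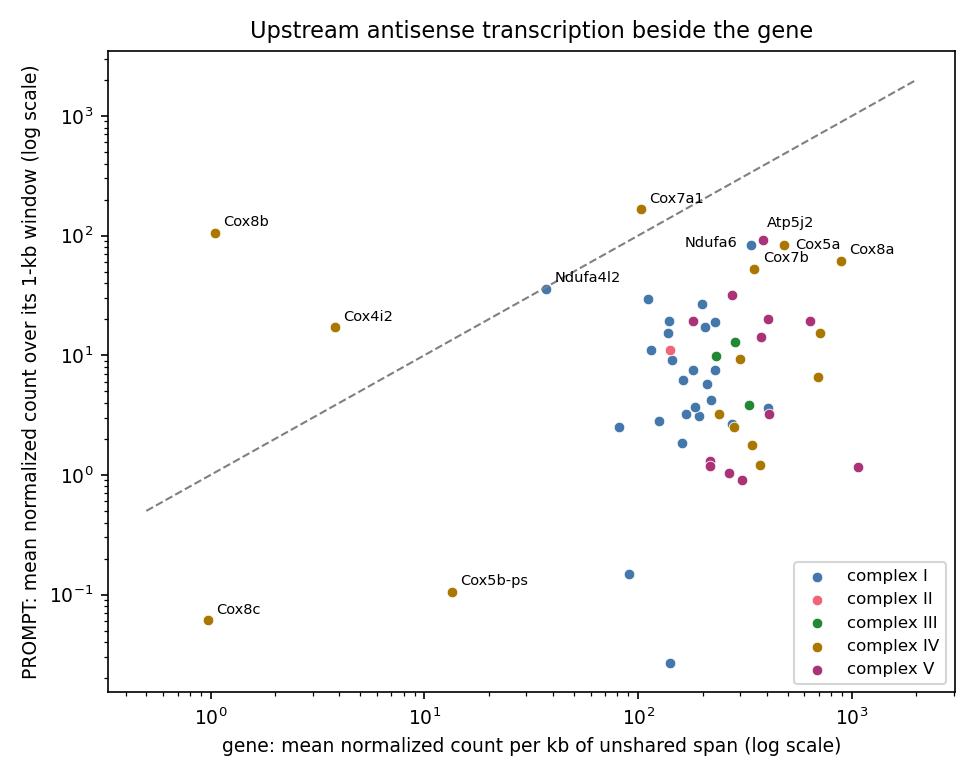
Mean normalized count of the PROMPT over its 1 kb window against the gene's level per kb of unshared span (both axes log), for members with both values above 0, coloured by complex; the dashed line marks equal values. Cox8b, Cox4i2 and Cox7a1 lie above the line, and most members lie far below it.

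Many subunit genes shared a promoter region with a neighbour. A gene on the opposite strand started within 1 kb of the start of 31 of 89 rows (34.8%), against 14.1% of the 15436 genes with a count of at least 10. These were 17 rows of complex I, 3 of complex II, 4 of complex III, 6 of complex V and, in complex IV, Cox4i1 alone. Of the 31, 10 had a PROMPT row. The member was at the higher level per kb in 24 of 29 pairs with both values, and over 10-fold higher in 5. No share over all pairs of the table stands beside this count, and the median row of the set lay at the 84.8th percentile of level. The count is therefore not read as a trait of these pairs. The following pairs were chosen after their values were seen. Ndufs1 starts 8 bp from Eef1b2, a translation elongation factor gene at 2507 per kb against 229 for Ndufs1. Ndufa7 starts 10 bp from Rps28, a ribosomal protein gene at 1110 per kb. Ndufs6 and Ndufb5 face the mitochondrial ribosomal protein genes Mrpl36 and Mrpl47, at 127 and 95.8 per kb. Sdhd and Timm8b, which encodes a chaperone of mitochondrial import, start 98 bp apart and had near levels, 333 and 324 per kb. Atp5j starts 700 bp from Gabpa, itself a regulator of respiratory genes, with 404 and 320 per kb. Uqcrq, at 443 per kb, starts 192 bp from Gdf9, an oocyte growth factor gene at 7.58 per kb.

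Motifs of factors known to regulate respiratory genes were searched in the 300 base promoters of the 70 members that matched the RefSeq table, on both strands. GCGCATGC, the core of the NRF1 site, was found in 10 promoters (14.3%, 95% Wilson interval 7.95 to 24.3%), against 3.74% of all promoters of the table and 4.91% of those of genes with a count of at least 10. CCGGAAG, an ETS site of the kind GABPA binds, was in 16 (22.9%, interval 14.6 to 34.0%), against 12.1% and 15.9%. On the strand of the gene alone this order turned, with 5.71% of the members against 6.76% and 8.96%. AAGATGG, the YY1 core, was in 10 (14.3%), against 6.38% and 6.61%. On the strand of the gene 8 promoters held it (11.4%), against 3.73% and 4.09%. GGGCGG (SP1) was in 29 (41.4%), CCAAT in 30 (42.9%) and TATAAA in 8 (11.4%), beside 47.7%, 39.0% and 13.1% of all promoters and 61.0%, 38.5% and 7.77% of those of genes with a count of at least 10. None of the 6 motifs contains another, and a match is a description of letters, not of a bound site.

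Stretches around matches are printed to show the sites, with at least 1 from each complex, from RefSeq on GRCm38.p6 with 26 bases on either side of the first match and the matched bases in capitals. Those of NRF1 are from Ndufa11 (chr17:56717676-56717735, plus strand), Sdhb (chr4:140961191-140961250, plus strand), Cox6a1 (chr5:115349087-115349146, minus strand) and Atp5g2 (chr15:102671056-102671115, minus strand), and those of the ETS site from Sdhd (chr9:50603863-50603921, minus strand), Uqcr11 (chr10:80406855-80406913, minus strand) and Atp5h (chr11:115419925-115419983, minus strand).
Ndufa11, NRF1: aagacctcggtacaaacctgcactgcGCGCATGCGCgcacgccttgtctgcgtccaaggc
Sdhb, NRF1: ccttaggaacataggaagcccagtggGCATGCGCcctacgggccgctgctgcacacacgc
Cox6a1, NRF1: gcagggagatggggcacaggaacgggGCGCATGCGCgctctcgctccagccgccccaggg
Atp5g2, NRF1: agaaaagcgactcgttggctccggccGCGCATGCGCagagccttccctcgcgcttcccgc
Sdhd, ETS: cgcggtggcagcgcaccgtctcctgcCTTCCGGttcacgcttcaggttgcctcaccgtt
Uqcr11, ETS: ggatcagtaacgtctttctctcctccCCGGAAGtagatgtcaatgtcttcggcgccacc
Atp5h, ETS: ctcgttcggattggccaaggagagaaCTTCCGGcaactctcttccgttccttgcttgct
In Ndufa11, Cox6a1 and Atp5g2 the motif matched on both strands at overlapping places, so 10 bases are in capitals. Sdhb, Uqcr11 and Cox6a1 were among the promoters that held both the NRF1 and the ETS letters.

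The genes that assemble and regulate these complexes were transcribed as well. Of 44 assembly factor genes, 41 had a count of at least 10, with a median of 133 per kb over those with a level. Cox20, a chaperone of complex IV assembly, was highest with 370 per kb. Cox16 and Pet117 were listed at 0, and both are wholly shared with another gene. Cox17, the copper chaperone of complex IV, had a count of 0.0447, with an unshared span of only 0.049 kb. Of respiratory chain genes outside the name rule, Cyc1 (cytochrome c1 of complex III) was at 569, Cycs (cytochrome c) at 204 and its testis form Cyct at 19.3 per kb. All 13 nuclear regulators on the list had a count of at least 10. Nrf1 was at 197, Gabpa at 320 and Yy1 at 462 per kb. Ppargc1a, the coactivator known from mitochondrial biogenesis in muscle and brown fat, was at 0.091 per kb with a count of 10.3, Ppargc1b at 22.9 and Pprc1 at 274 per kb.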

How the data were processed

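TT-seq was made from 18 libraries in 6 conditions with 3 libraries each. Per the study's methods, Trim Galore was run on the reads, STAR placed them on mm10 (GRCm38) with unique alignments kept, and the authors counted read pairs by strand on Gencode features with featureCounts, while the submitters' processing notes name STAR, HTSeq, DESeq2 and deepTools. They deposited 4 tables, of which the gene and the PROMPT tables were used. The value used is a signal that the authors made and deposited, the mean over libraries of counts divided by DESeq2 size factors, pooled over control and SPT16-depleted libraries. The other columns of these tables hold the authors' log2 fold changes, their standard errors, p-values and adjusted p-values, and were not used. The tables of putative eRNAs and of transcripts at DNaseI hypersensitive sites name no gene and were not used. With 1 pooled mean per gene, no value has an error and no test was made.

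Genes were matched by identifier to Gencode vM21 on GRCm38 (21817 of 21859), whereas the authors counted on a later release. Members and lists were chosen with earlier results of these data known. The design divided levels by the length of the exon union. After genes enclosed in others were seen at 0, the span unshared on the same strand by other genes of the table was used in its place, and the exon union became an alternative. Percentiles are among genes with a count of at least 10. The genes named were isoform families, catalytic cores, per complex the 2 highest and 2 lowest per kb, members under 10 and the 3 highest PROMPT ratios; others are named as examples chosen after their values were seen. Promoters were matched by symbol to RefSeq (GRCm38.p6) for 70 of 88 names, taking the first window of each gene. Atp5a1, Atp5mpl, Cox4i1, Cox4i2, Cox5b-ps, Cox6a2, Cox6c, Cox8c, Ndufa2, Ndufa4l2, Ndufb11b, Ndufb9, Ndufs1, Sdhc, Uqcrb, Uqcrc2 and Uqcrq were among those not matched. The values of 1 member are not reported here. Intervals are 95% and cover counting of promoters only.

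The depth of a library enters only through values of 1 read in 1 library, sought among values up to 0.2 that held at least 0.06 of the genes of the most frequent value. At most 18 values, the number of libraries, were kept, so their number is not a finding. With the same limit, the search was tested on simulated data for the gene table with 21859 genes and found 18 of 18 simulated libraries. The software was pandas 2.3.3 and numpy 2.4.6 for the tables, scipy 1.17.1 for intervals and matplotlib 3.10.9 for figures, under Python 3.11.15.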

Additional observations from a re-analysis of the deposited data

How the results depend on the processing

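No paired analysis was possible because the value used is 1 mean per gene over all libraries, with no column for a replicate, and for the same reason no replicate could be left out. The comparison of proteins within isoform families was not run, as no protein table was used here. Of 90 alternatives to 27 results, 57 stayed within 1.5 times the value, 5 percentile points or the 95% interval of the share. The choice of length moved most of the others. The 57 include the fall from 79 to 54 rows above the median gene without length correction, which is within 1.5 times. Per kb of exon, the set's median percentile was 77.5 in place of 84.8, with 71.8 for complex I, 73.8 for complex IV and 77.8 for complex V. Without length correction it was 53.5 for the set, and 49.5, 67.7, 53.1, 45.8 and 59.1 for complexes I to V, so that the set then lay near the median gene. Median levels per kb of exon were 783, 1279, 1446, 831 and 986 for complexes I to V, and the geometric mean of complex IV was 73.0 per kb of unshared span. The share of Cox6b2 in its family was 22.7% by count and 15.8% per kb of exon, that of Cox7a2 22.9% and 30.1%, that of Cox7a2l 73.7% and 62.0%, that of Cox7b 91.5% and 82.9%, that of Atp5g3 25.5% and 24.2%, and that of Ndufa4 97.3% and 96.6%. A PROMPT of at least 10 was found at 24 members, and the median ratio of PROMPT to gene was 0.758% per kb of exon. On the strand of the gene alone, the NRF1 letters were in 7.14% of the members' promoters against 2.60% of all, ETS in 5.71% against 6.76%, SP1 in 24.3% against 31.3%, CCAAT in 22.9% against 22.5% and TATAAA in 4.29% against 8.85%. For promoters of genes with a count of at least 10, these shares were 3.45%, 8.96%, 40.6%, 22.2% and 4.83%. What depth limits are the rows under 10, of which Cox8c rests on as few as 10 reads.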
